A study of Mus musculus with 36 samples.

Results

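The lungs of 9 mice breathing ozone for 24 hr were compared with the lungs of 9 mice breathing it for 6 hr, which are 18 of the 36 arrays of the series. These arrays were selected by the exposure time in their labels, with 3 Notch3-/-, 3 Notch4-/- and 3 WT mice at each time, and the 24 minus 6 hr difference was estimated with genotype as an additive term, so that no air array entered it. Each array held RNA from the whole left lung of 1 male mouse aged 7 to 13 weeks, and all 18 mice received 0.3 ppm ozone by continuous whole-body inhalation. The knockout mice carried germline deletions (Notch3 tm1Grid or Notch4 tm1Grid) on a mixed strain background, whereas the WT mice were B6129SF1/J hybrids, so that the deletion and the strain background cannot be told apart between genotypes. No source used here gives the clock time at which lungs were taken, and each genotype had 1 air group, so that the length of exposure and the hour of sampling cannot be told apart either. In whole lung, fewer cells of a type and less RNA per cell cannot be told apart.

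Ozone is consumed at the surface of the airways and alveoli, where it oxidizes the lining fluid and cell membranes and injures ciliated and alveolar type 1 cells. Injured epithelium and resident macrophages then release chemokines and cytokines, neutrophils enter the airspaces, interleukin-6 family cytokines induce acute-phase genes, and the surviving epithelium spreads and later divides to close the denuded surface. Lung tissue also holds its own circadian clock, a transcription loop in which Clock and Arntl (BMAL1) drive the Per, Cry and Nr1d genes and the PAR bZIP factors Dbp, Tef and Hlf, and this loop is sensitive to glucocorticoids.

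The targeted genes followed the labels. In the 6 Notch3-/- lungs both Notch3 probe sets read -2.43 to -1.83 and -4.51 to -3.13 as log2 levels, where 0 is the median of that probe set on all 36 arrays, against 0.21 to 0.88 and 0.15 to 0.60 in the other 12 lungs. In the 6 Notch4-/- lungs 1 Notch4 probe set read -4.31 to -3.75 and another -0.70 to -0.58, against -0.38 to 0.58 and -0.14 to 0.58 in the other 12. A further Notch4 probe set read -0.23 to 0.16 in the Notch4-/- lungs and -0.31 to 0.38 in the others and did not separate them. The SD of an array's values lay between 0.21 and 0.34, the highest being that of Notch3-/- 6 hr replicate 2. Because every probe set is centred in this way, the presence of lung cell types cannot be read from absolute levels, and the mean of a marker list shows only how lungs differ.

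Of 45037 probe sets, 5796 (12.9%) passed an adjusted p of 0.05 in limma's moderated test, 2803 (6.22%) higher and 2993 (6.65%) lower at 24 hr. With 1 probe set per gene, 1346 of 18193 genes (7.4%) were higher and 1191 (6.55%) lower. Most of these differences were small. The median size of a called difference was 0.348 on the log2 scale, 67 probe sets were called with a rise of more than 1 log2 unit and 56 with a fall of more than 1, and the median standard error was 0.0788. The sign of the difference was the same in all 3 genotypes for 5763 of the called probe sets. The 9 values at 24 hr lay wholly outside the 9 values at 6 hr in 484 probe sets (1.07%), 291 of them (0.646%) higher and 193 (0.429%) lower.

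The largest rises without overlap were in inflammatory, matrix and epithelial-stress genes. Saa3, an acute-phase serum amyloid A made in lung, ranged from 0.33 to 1.70 (median 1.13) at 24 hr and from -3.04 to -1.99 (median -2.27) at 6 hr, an 11-fold rise (log2 3.46, SE 0.15, adjusted p = 3.6e-10). Sprr1a, a cornified envelope precursor of injured epithelium, ranged from -0.43 to 1.16 (median 0.67) at 24 hr and from -3.60 to -2.28 (median -2.59) at 6 hr (log2 3.32, SE 0.17, adjusted p = 8.8e-10). Timp1, an inhibitor of matrix metalloproteinases, ranged from -0.13 to 1.74 (median 1.10) at 24 hr and from -2.59 to -1.95 (median -2.27) at 6 hr (log2 3.25, SE 0.16, adjusted p = 8.8e-10). Only genes without overlap were ranked here, so that the separation of the times in these genes follows from the choice. The others of the 10 largest were the neutrophil chemokines Cxcl5 (log2 3.22) and Cxcl3 (2.99), the cytokine Il6 (2.95), the EGF receptor ligand Ereg (2.51), the aggrecanase Adamts4 (2.26), the matricellular gene Tnc (2.21) and the metallothionein Mt2 (2.08).

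The largest falls without overlap were led by the circadian output genes Dbp (log2 -2.62), Per1 (-1.46), Hlf (-1.32), Nr1d2 (-1.18) and Tef (-1.01), which are described with the clock. Asgr1, a subunit of the asialoglycoprotein receptor, ranged from -1.0 to 0.03 (median -0.33) at 24 hr and from 0.32 to 1.44 (median 0.71) at 6 hr (log2 -1.18, SE 0.14, adjusted p = 3.2e-05). Pik3ip1, a negative regulator of phosphoinositide 3-kinase, ranged from -0.79 to 0.02 (median -0.49) at 24 hr and from 0.18 to 0.73 (median 0.57) at 6 hr (log2 -0.97, SE 0.09, adjusted p = 1.6e-06). Dixdc1, which acts in Wnt signaling (log2 -0.97, adjusted p = 0.00012), the tight junction gene Cldn8 (-0.94, adjusted p = 1.7e-05) and the homeobox gene Six4 (-0.91, adjusted p = 0.0046) made up the 10. Apart from Dbp, these falls were smaller than the 10 rises, and the lungs at 24 hr spread more widely than those at 6 hr in Dbp, Per1 and Nr1d2.

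**Figure D1:**
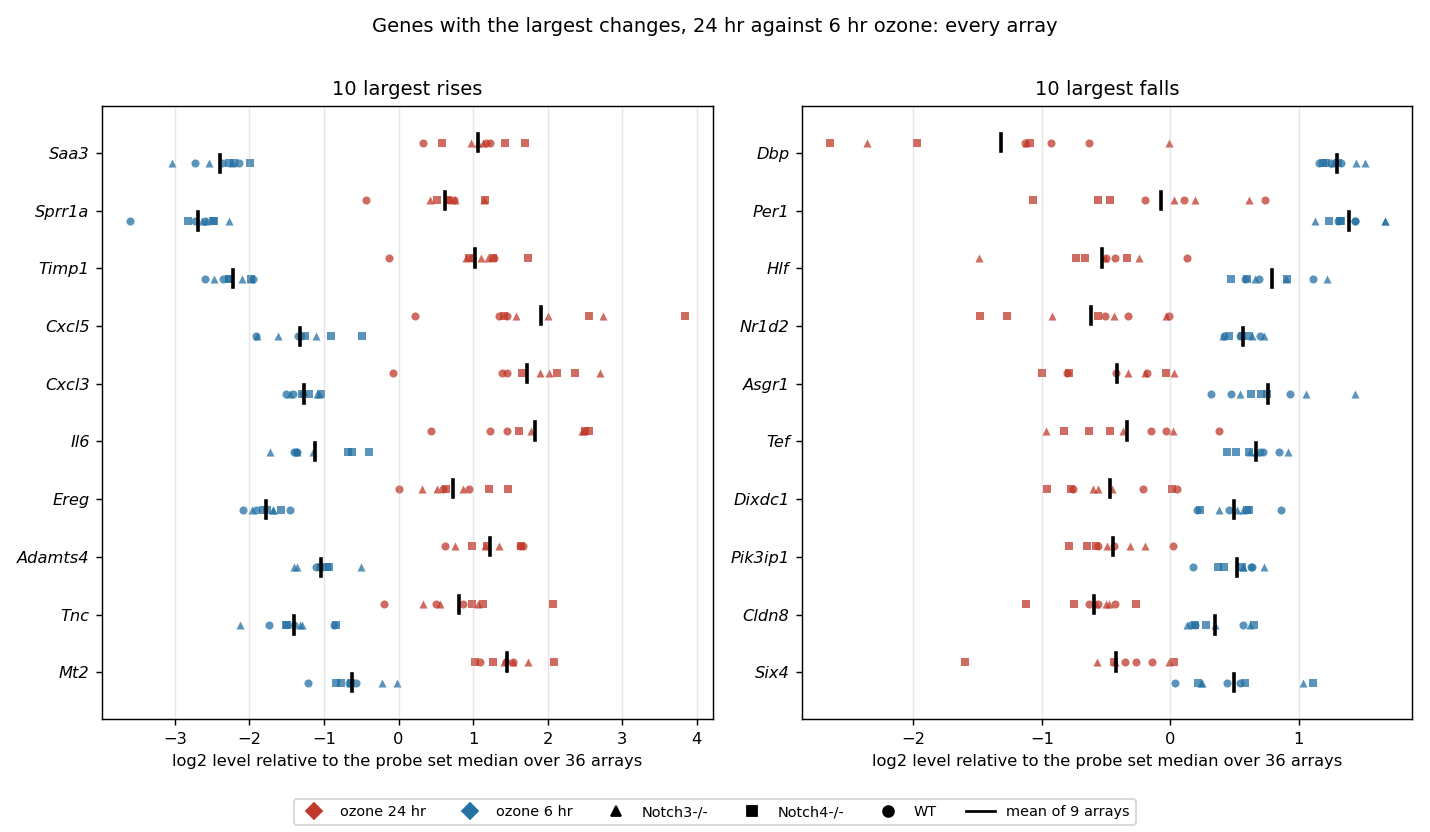
Levels of the 10 largest rises (left) and 10 largest falls (right) among called genes without overlap and with the same sign in all 3 genotypes. Larger falls with overlap, such as Thrsp (log2 -1.77) and Cyp2e1 (-1.50), are therefore not shown. For each gene 24 hr arrays (red) are drawn above 6 hr arrays (blue), with symbols by genotype. Each point is 1 mouse, and a black bar marks the mean of 9 arrays. The x axis is the log2 level relative to the probe set's median over 36 arrays. No 24 hr point of a gene reaches its 6 hr points because only genes without overlap were picked. Cxcl5 spreads from 0.22 to 3.84 among the 24 hr lungs.

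Among 48 lists of pathway and cell type genes, the shares of members called were set against the 7.4% of all genes called higher and the 6.55% called lower. Acute-phase genes, heat shock genes, unfolded protein response genes and CC and CXC chemokines had the largest shares higher, and club cell genes and clock genes the largest shares lower. The lists were chosen with earlier results of these arrays known, so that their counts describe these lungs. By the methods' ANOVA with Tukey's test fewer members were called lower in several lists, 3 in place of 5 for the cytochrome P450, interferon-stimulated and NRF2 lists, 2 in place of 5 for glucocorticoid-responsive genes, 1 in place of 3 for p53 targets and 1 in place of 2 for ciliated cell genes. The single genes called lower among the interleukin-6, NF-kB, EGF receptor and AP-1 lists were not called by that test. In lists with calls in 1 direction, leaving out 1 array at times brought a call in the other. This was 1 call for heat shock genes (Notch3-/- 6 hr replicate 1), epithelial repair genes (Notch4-/- 24 hr replicate 1), metal genes (WT 24 hr replicate 2 or Notch4-/- 24 hr replicate 1) and coagulation genes (Notch3-/- 6 hr replicate 3, Notch3-/- 24 hr replicate 2 or Notch4-/- 24 hr replicate 1). It was up to 2 calls for IL-1 family genes (2 without Notch3-/- 24 hr replicate 3, 1 without WT 6 hr replicate 2 or Notch3-/- 6 hr replicate 3), macrophage genes (2 without Notch3-/- 6 hr replicate 3, 1 without WT 6 hr replicate 3 or WT 24 hr replicate 1) and goblet cell genes (2 without Notch4-/- 24 hr replicate 1).

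**Figure D2:**
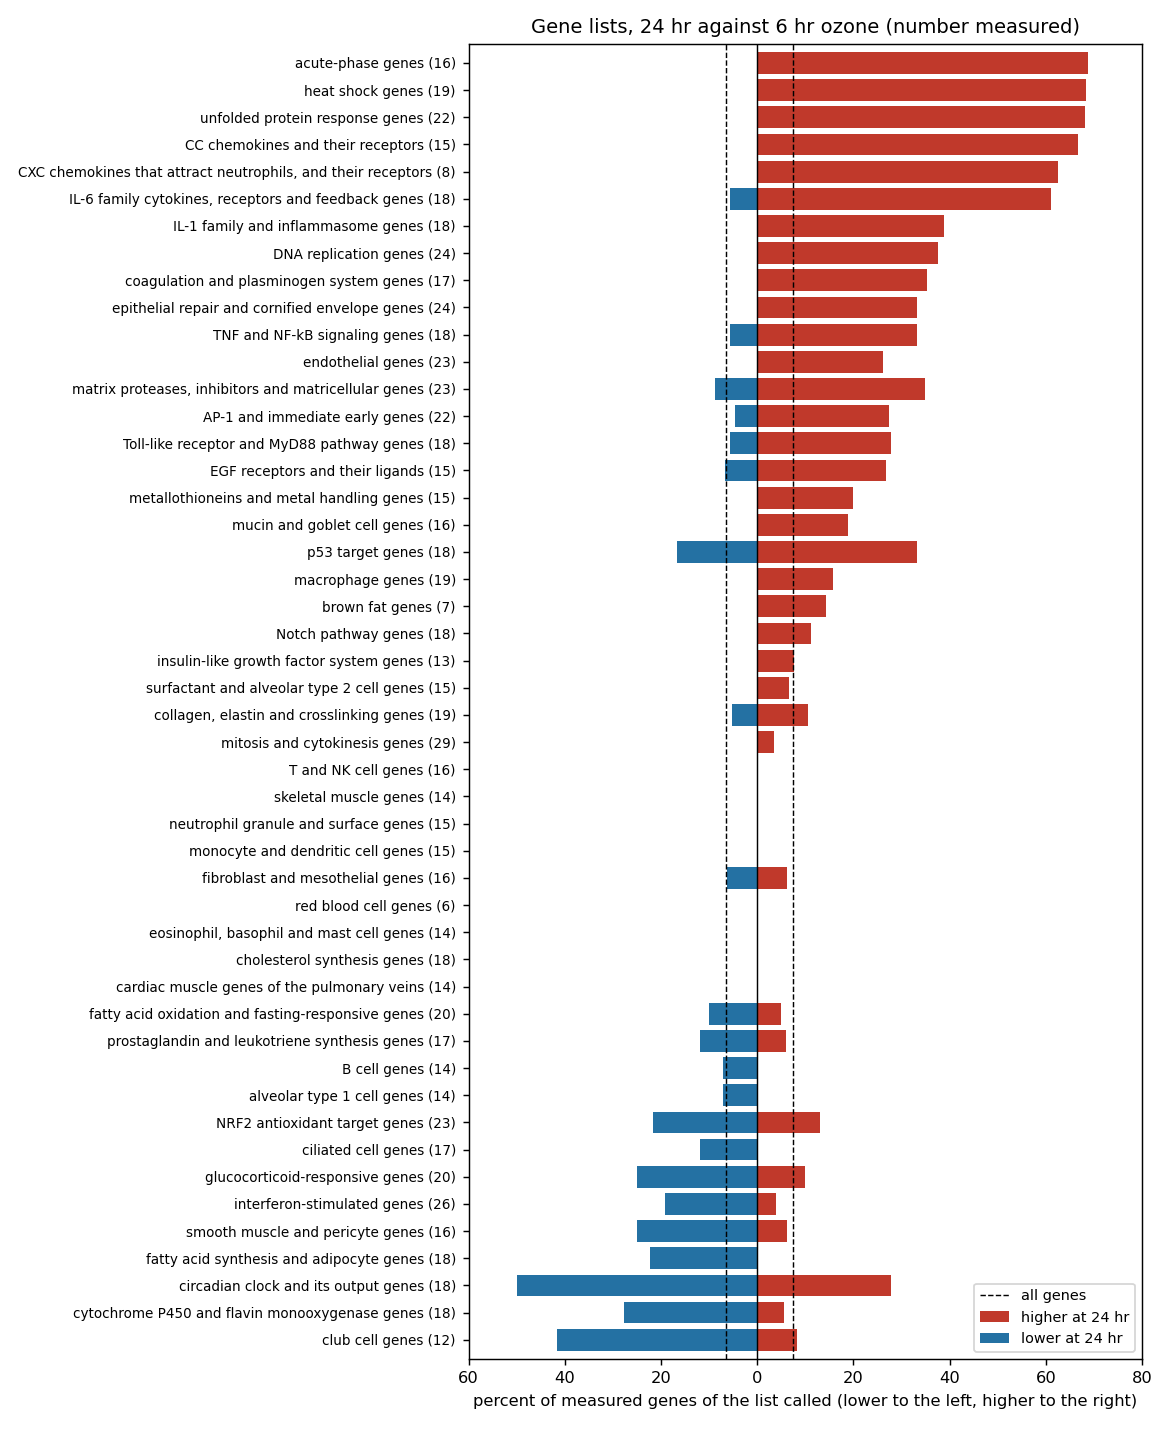
Percent of the measured members of each list called higher (red, to the right) or lower (blue, to the left) at 24 hr than at 6 hr, with the number of genes measured in parentheses. Dashed lines mark the share of all 18193 genes, 7.4% higher and 6.55% lower. Acute-phase genes stand at the top with 11 of 16 higher, and 9 of 18 clock genes were lower.

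Most chemokines that recruit neutrophils and monocytes were higher at 24 hr. Of 8 measured CXC chemokines and receptors of neutrophil attraction, 5 were called, all higher, with a median difference over the list of 0.57 against 0.02 over all genes. Cxcl3, a ligand of the neutrophil receptor CXCR2, ranged from -0.07 to 2.70 (median 1.90) at 24 hr and from -1.51 to -1.04 (median -1.28) at 6 hr (log2 2.99, SE 0.20, adjusted p = 5.2e-08). Cxcl1, the mouse KC chemokine, ranged from 0.97 to 1.88 (median 1.21) at 24 hr and from -1.26 to -0.06 (median -0.46) at 6 hr (log2 1.94, SE 0.17, adjusted p = 1.2e-06). Both genes separated the times without overlap. Cxcl2, the mouse MIP-2 chemokine, rose by 0.91 (SE 0.07, adjusted p = 4.1e-07) with overlapping values, -0.03 to 0.97 at 24 hr and -0.93 to -0.01 at 6 hr. Cxcl15, the lung-specific chemokine lungkine, rose by 0.24 (SE 0.04, adjusted p = 0.002).

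With all arrays no gene of the neutrophil list was called. Of 15 neutrophil granule and surface genes, 0 passed limma's adjusted test in either direction, against 7.4% of all genes higher and 6.55% lower. By the methods' Tukey test 0 passed. At an unadjusted p under 0.05, 2 of the 15 were higher and 1 lower, and 12234 of all 45037 probe sets were under it. The count higher by the adjusted test was 2 without WT 6 hr replicate 2, and 1 without WT 6 hr replicate 3, Notch3-/- 6 hr replicate 2 or Notch4-/- 24 hr replicate 1. S100a9, an abundant neutrophil granule protein, ranged from -1.64 to 1.79 (median -0.27) at 24 hr and from -1.43 to 2.35 (median 0.67) at 6 hr (log2 -0.43, SE 0.22, adjusted p = 0.22). Ltf, a secondary granule gene, ranged from -2.41 to 2.76 at 24 hr and from -2.14 to 3.20 at 6 hr (log2 -0.47, SE 0.53, adjusted p = 0.61). The spread among lungs of 1 time was thus several log2 units in both genes. The mean over the list lay at -0.64 to 0.61 (median -0.10) at 24 hr and at -0.61 to 0.71 (median 0.14) at 6 hr, overlapping almost fully.

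Of 15 CC chemokines and receptors, 10 were called, all higher, with a median difference of 0.70. Ccl17, a ligand of CCR4 made by dendritic cells and macrophages, ranged from -0.09 to 1.30 (median 0.77) at 24 hr and from -1.90 to -0.42 (median -1.07) at 6 hr (log2 1.86, SE 0.08, adjusted p = 3.6e-10). Ccl2, the main monocyte attractant, ranged from -0.05 to 1.61 (median 0.72) at 24 hr and from -1.32 to -0.64 (median -0.91) at 6 hr (log2 1.77, SE 0.14, adjusted p = 2.3e-07). Ccl7 rose by 2.03 (SE 0.16, adjusted p = 2.3e-07), Ccl22, which shares CCR4 with Ccl17, by 1.35 (SE 0.11, adjusted p = 7.8e-07) and Ccl20, which attracts CCR6-bearing cells, by 1.27 (SE 0.20, adjusted p = 0.00046). None of these 5 overlapped between the times. The eosinophil attractant Ccl11 rose by 0.99 (SE 0.22, adjusted p = 0.0058) and Ccl3 by 0.58 (SE 0.13, adjusted p = 0.0071), both with overlap.

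Interleukin-6 family genes and their feedback inhibitors were higher at 24 hr. Of 18 measured, 11 were called higher and 1, the cytokine Ctf1, lower, a count that was 0 without any of 10 single arrays, and the median difference was 0.37. Il6 ranged from 0.43 to 2.55 (median 1.77) at 24 hr and from -1.72 to -0.39 (median -1.36) at 6 hr (log2 2.95, SE 0.19, adjusted p = 2.6e-08). Socs3, the feedback inhibitor of gp130 signaling, ranged from 0.26 to 1.08 (median 0.79) at 24 hr and from -0.93 to -0.49 (median -0.71) at 6 hr (log2 1.42, SE 0.09, adjusted p = 1.3e-08). Every lung followed this order, and by genotype Il6 differed by 3.65 in Notch3-/-, 2.79 in Notch4-/- and 2.41 in WT lungs. Bcl3 rose by 1.24 (SE 0.11), the cytokine Lif by 1.10 (SE 0.12), the kinase Pim1 by 0.90 (SE 0.08), the oncostatin M receptor Osmr by 0.81 (SE 0.09) and Il11 by 0.72 (SE 0.09), each without overlap and with an adjusted p of at most 6.1e-05.

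Acute-phase genes had the largest share called higher of any list, 11 of 16, with none lower and a median difference of 0.60. Saa1 ranged from 0.28 to 2.82 (median 1.42) at 24 hr and from -0.54 to -0.04 (median -0.33) at 6 hr (log2 1.70, SE 0.23, adjusted p = 0.00013). Lcn2, the siderophore-binding lipocalin, ranged from -0.16 to 0.87 (median 0.59) at 24 hr and from -0.94 to -0.25 (median -0.65) at 6 hr (log2 1.17, SE 0.08, adjusted p = 1.1e-07). Neither overlapped. The heme binder Hpx (log2 1.21, SE 0.14), the protease inhibitor Serpina3n (1.11, SE 0.14), Lrg1 (1.08, SE 0.11) and the fibrinogen chain Fgg (0.95, SE 0.18) also rose, with adjusted p of at most 0.0022.

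Genes of the IL-1, TNF and Toll-like receptor pathways were called as well. Of 18 IL-1 family and inflammasome genes, 7 were called higher, among them the alarmin Il33 (log2 0.97, SE 0.14, adjusted p = 0.0002), Il1b (0.72, SE 0.17, adjusted p = 0.0078), the receptor antagonist Il1rn (0.42, SE 0.07, adjusted p = 0.00083) and Il18r1 (0.41, SE 0.05, adjusted p = 0.0001). Of 18 TNF and NF-kB genes, 6 were called higher and Nfkbia, whose call was lost in 7 of 18 fits without 1 array, lower, led by Tnfaip2 (0.67, SE 0.07, adjusted p = 1.8e-05) and Nfkb2 (0.51, SE 0.08, adjusted p = 0.00081). Tnf itself ranged from -0.20 to 0.57 (median 0.11) at 24 hr and from -0.67 to 0.06 (median -0.15) at 6 hr (log2 0.34, SE 0.10, adjusted p = 0.034). Its call was lost in 9 of 18 fits that left out 1 array, where the difference was 0.28 to 0.39 and the adjusted p at most 0.068. Of 18 Toll-like receptor and MyD88 pathway genes, 5 were called higher and Tlr5 lower, with a median difference of 0.05. The count higher was 3 by the methods' Tukey test and in 8 of 18 fits without 1 array. Tlr5 lost its call in 13 of those 18 fits. Myd88, the adaptor of Toll-like and IL-1 receptors, ranged from 0.01 to 0.48 (median 0.39) at 24 hr and from -0.36 to -0.08 (median -0.23) at 6 hr (log2 0.56, SE 0.06, adjusted p = 1.2e-05). The lipopolysaccharide co-receptor Cd14 rose by 0.63 (SE 0.11, adjusted p = 0.0012) and the adaptor Tirap by 0.40 (SE 0.08, adjusted p = 0.002), whereas Traf6 differed by 0.11 (SE 0.06, adjusted p = 0.29). Myd88, Il18r1, Il6 and Socs3 thus separated the times fully, and Tnf did not.

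Some repair genes of the epithelium and matrix rose. Of 24 epithelial repair and cornified envelope genes 8 were called, all higher, with a median difference over the list of 0.12. Tgm1, the transglutaminase that crosslinks the cornified envelope, ranged from -0.09 to 0.99 (median 0.61) at 24 hr and from -1.19 to -0.79 (median -0.95) at 6 hr (log2 1.52, SE 0.11, adjusted p = 8.4e-08). Sfn, the epithelial 14-3-3 sigma, rose by 1.02 (SE 0.10, adjusted p = 7.2e-06), the simple-epithelium keratins Krt7 and Krt18 by 0.41 (SE 0.07, adjusted p = 0.0012) and 0.40 (SE 0.10, adjusted p = 0.0098). Among 15 EGF receptors and ligands 4 were called higher and 1 lower. Ereg ranged from 0.01 to 1.47 (median 0.64) at 24 hr and from -2.09 to -1.46 (median -1.76) at 6 hr (log2 2.51, SE 0.14, adjusted p = 5.2e-09). Hbegf and the receptor Egfr each rose by 0.69 (SE 0.12 each, adjusted p = 0.00086 and 0.0011), and Nrg1 by 0.41 (SE 0.09, adjusted p = 0.0046). Errfi1, an inhibitor of the EGF receptor, was lower at 24 hr than at 6 hr by log2 -0.32 (SE 0.08, adjusted p = 0.013). It lay above air at both times, by 0.95 at 6 hr and 0.63 at 24 hr.

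Of 23 matrix proteases, inhibitors and matricellular genes, 8 were called higher and 2 lower, with a median difference of 0.11. Adamts4 ranged from 0.62 to 1.67 (median 1.18) at 24 hr and from -1.40 to -0.51 (median -1.04) at 6 hr (log2 2.26, SE 0.15, adjusted p = 2.6e-08). Tnc, tenascin C, ranged from -0.19 to 2.07 (median 0.86) at 24 hr and from -2.12 to -0.84 (median -1.40) at 6 hr (log2 2.21, SE 0.21, adjusted p = 2.6e-06). These matrix genes separated the times, as did Thbs1 (log2 1.40, SE 0.24, adjusted p = 0.0011) and the macrophage elastase Mmp12 (0.70, SE 0.10, adjusted p = 0.00015). Mmp3 rose by 0.93 (SE 0.17, adjusted p = 0.0018) and Mmp19 by 0.61 (SE 0.12, adjusted p = 0.0023). The 2 that fell were Thbs3 (log2 -0.65, SE 0.11, adjusted p = 0.00066) and the connective tissue growth factor Ccn2 (-0.33, SE 0.07, adjusted p = 0.0029). Ccn2 ranged from -0.14 to 0.19 at 24 hr and from 0.19 to 0.59 at 6 hr.

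In the coagulation and plasminogen system 6 of 17 genes were called, all higher. Tfpi2, an inhibitor of tissue factor and plasmin, ranged from -0.06 to 1.47 (median 0.90) at 24 hr and from -1.27 to -0.34 (median -0.72) at 6 hr (log2 1.63, SE 0.17, adjusted p = 6.7e-06). Tissue factor itself, F3, rose by 0.67 (SE 0.11, adjusted p = 0.00061), and the plasminogen activators Plat and Plau rose by 0.60 (SE 0.11, adjusted p = 0.0011) and 0.41 (SE 0.07, adjusted p = 0.00092). Plau differed from air by -0.34 at 6 hr and by 0.06 at 24 hr, and Plat by -0.29 and 0.31. The same pair was 0.20 and 0.87 for F3, and -0.32 and 1.31 for Tfpi2. Of 16 mucin and goblet cell genes 3 were called higher. The anion exchanger Slc26a4 (pendrin) ranged from -0.22 to 1.70 (median 1.09) at 24 hr and from -1.52 to -0.25 (median -0.95) at 6 hr (log2 1.80, SE 0.22, adjusted p = 4.7e-05). Retnlb rose by 0.99 (SE 0.09, adjusted p = 3.3e-06) and the membrane mucin Muc4 by 0.56 (SE 0.15, adjusted p = 0.019).

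Several genes of the conducting airway were lower at 24 hr. Of 12 club cell genes 5 were called lower and 1, haptoglobin (Hp), higher, a count that was 0 without WT 24 hr replicate 3, with a median difference over the list of -0.25. Lypd2 ranged from -1.30 to 0.69 (median -0.97) at 24 hr and from -0.23 to 1.31 (median 0.33) at 6 hr (log2 -0.93, SE 0.20, adjusted p = 0.0057). Smaller falls were called in the retinal dehydrogenase Aldh1a1 (-0.25, SE 0.06, adjusted p = 0.01), the club cell cytochrome Cyp2f2 (-0.24, SE 0.07, adjusted p = 0.021), the secretoglobin Scgb3a2 (-0.24, SE 0.07, adjusted p = 0.023) and the carbonyl reductase Cbr2 (-0.15, SE 0.04, adjusted p = 0.026). The last of these calls was lost (adjusted p = 0.052) without Notch4-/- 24 hr replicate 2. Scgb1a1, the most abundant club cell secretoglobin, differed by -0.01 (SE 0.04, adjusted p = 0.92). Bpifa1, a secreted protein of the larger airways, varied by many log2 units among lungs of 1 time and was not called. It ranged from -6.89 to 3.47 (median -4.59) at 24 hr and from -4.47 to 3.77 (median 0.48) at 6 hr (log2 -2.04, SE 1.20, adjusted p = 0.29). The mean over the club cell list lay at -1.76 to 1.13 (median -1.41) at 24 hr and at -1.44 to 1.40 (median 0.36) at 6 hr, and how much large airway each left lung carried was not tested.

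Of 17 ciliated cell genes 2 were called (11.8%), both lower, against 6.55% of all genes called lower. The median difference over the list was -0.29. The count was 8 without Notch4-/- 24 hr replicate 1. It was 1 without WT 6 hr replicates 1 or 2, WT 24 hr replicates 1 or 3, Notch3-/- 6 hr replicate 1, Notch3-/- 24 hr replicate 1, Notch4-/- 6 hr replicate 1 or Notch4-/- 24 hr replicates 2 or 3. Tppp3, a tubulin-binding protein of motile cilia, ranged from -0.59 to 0.02 (median -0.37) at 24 hr and from -0.02 to 0.52 (median 0.22) at 6 hr (log2 -0.57, SE 0.10, adjusted p = 0.0011). Ccdc113 was lower by log2 -0.46 (SE 0.14, adjusted p = 0.033), a call lost in 9 of the 18 fits without 1 array. Foxj1, the master regulator of ciliation, differed by -0.03 (SE 0.13, adjusted p = 0.91). The mean over the list lay at -0.40 to 0.48 (median -0.21) at 24 hr, highest in Notch4-/- 24 hr replicate 1, and at -0.07 to 0.49 (median 0.15) at 6 hr, highest in Notch3-/- 6 hr replicate 1. The same 2 lungs had the highest means of the club cell list at their times.

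With all arrays, metal genes were called only higher and antioxidant genes in both directions. Mt2 ranged from 1.03 to 2.09 (median 1.44) at 24 hr and from -1.21 to -0.02 (median -0.65) at 6 hr (log2 2.08, SE 0.13, adjusted p = 2.6e-08). The zinc and iron importer Slc39a14 rose by 0.64 (SE 0.09, adjusted p = 0.00012) and heme oxygenase Hmox1 by 0.38 (SE 0.07, adjusted p = 0.002). Together these were 3 of 15 metal-handling genes. Among 23 antioxidant genes induced through NRF2, 5 were called lower and 3 higher, or 6 higher without Notch3-/- 6 hr replicate 1. Against air, 2 of the 23 were called higher and 0 lower at 6 hr, and 7 higher and 2 lower at 24 hr. Gclc, which catalyses the first step in making glutathione, rose by 0.84 (SE 0.11, adjusted p = 9.3e-05) and glutathione reductase Gsr by 0.42 (SE 0.11, adjusted p = 0.02). Among the 5 called lower, Gsta2, a glutathione S-transferase, ranged from -0.85 to 0.06 (median -0.13) at 24 hr and from -0.04 to 1.36 (median 0.59) at 6 hr (log2 -0.88, SE 0.16, adjusted p = 0.0017). The epoxide hydrolase Ephx1 ranged from -0.45 to 0.01 (median -0.21) at 24 hr and from 0.22 to 0.64 (median 0.35) at 6 hr (log2 -0.58, SE 0.06, adjusted p = 9e-06). Gsta4 (-0.34, SE 0.08, adjusted p = 0.013) and catalase, Cat (-0.33, SE 0.06, adjusted p = 0.0015), were also lower. Gsta2 differed from air by 0.81 at 6 hr and by -0.06 at 24 hr, and Ephx1 by 0.18 and -0.40.

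The clock list had the highest share of members called in either direction. Of 18 measured clock and output genes 14 were called, 9 lower and 5 higher, and 8 did not overlap between the times. The promoters of 3 of the genes that fell are shown because they hold the E-box CACGTG through which CLOCK and BMAL1 act, or the D-box TTATGNAA bound by DBP, TEF, HLF and NFIL3. Each run gives 300 bases around a RefSeq transcript start (GRCm38.p6), most of them upstream, 5′ to 3′ on the gene's strand, with the E-boxes and the D-box in capitals. The Per1 window is chr11:69098699-69098998 (+), with an E-box 166 and a D-box 24 bases upstream of the start. The Ciart window is chr3:95882179-95882478 (-), with E-boxes 116, 58 and 44 bases upstream. The Tef window is chr15:81802423-81802722 (+), with an E-box 127 bases upstream. Windows at a second start of Per1 and of Tef are not printed. That of Per1 (chr11:69099902-69100201) held no match, and that of Tef (chr15:81811164-81811463) held an E-box 138 bases upstream.
Per1: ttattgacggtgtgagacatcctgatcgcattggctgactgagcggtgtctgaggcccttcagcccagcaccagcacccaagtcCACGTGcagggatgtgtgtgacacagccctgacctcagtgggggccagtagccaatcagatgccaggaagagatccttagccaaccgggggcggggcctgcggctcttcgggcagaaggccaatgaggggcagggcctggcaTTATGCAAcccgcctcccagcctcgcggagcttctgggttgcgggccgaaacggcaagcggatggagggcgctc
Ciart: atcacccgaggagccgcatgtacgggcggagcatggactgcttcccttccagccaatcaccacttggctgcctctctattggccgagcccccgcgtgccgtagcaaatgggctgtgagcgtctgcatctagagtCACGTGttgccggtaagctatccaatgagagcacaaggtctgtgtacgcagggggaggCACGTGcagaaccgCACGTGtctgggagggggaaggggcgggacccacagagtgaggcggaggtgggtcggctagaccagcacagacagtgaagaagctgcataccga
Tef: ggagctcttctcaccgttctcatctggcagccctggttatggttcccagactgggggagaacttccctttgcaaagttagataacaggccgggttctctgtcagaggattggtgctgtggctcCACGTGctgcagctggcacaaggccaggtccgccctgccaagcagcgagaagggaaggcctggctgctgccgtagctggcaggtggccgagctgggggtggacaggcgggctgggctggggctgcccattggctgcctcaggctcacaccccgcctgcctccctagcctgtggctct

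With both strands searched, an E-box stood in the window of 5 of 16 clock genes that have one in the RefSeq tables (31.2%), Per1, Ciart, Tef, Cry1 and Bhlhe41, and in 8.09% of 27025 genes. A D-box stood in 2 of the 16 (12.5%), Per1 and Per3, and in 3.99% of all genes. A gene with several starts counted as a match if any of its windows held one. The E-box carriers moved in different directions, with Per1, Ciart and Tef lower, Cry1 higher and Bhlhe41 differing by 0.04 (SE 0.07, adjusted p = 0.77). A match describes letters in a window and was not tested for binding.

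Dbp, the output factor whose level follows the clock most steeply, ranged from -2.65 to -0.01 (median -1.12) at 24 hr and from 1.16 to 1.52 (median 1.27) at 6 hr, 6.15-fold lower at 24 hr (log2 -2.62, SE 0.25, adjusted p = 3e-06). Per1, a repressor of the loop and a direct glucocorticoid target, ranged from -1.07 to 0.74 (median 0.03) at 24 hr and from 1.13 to 1.67 (median 1.33) at 6 hr (log2 -1.46, SE 0.15, adjusted p = 6.7e-06). Nr1d2, the nuclear receptor REV-ERB beta, ranged from -1.48 to -0.01 (median -0.51) at 24 hr and from 0.41 to 0.73 (median 0.56) at 6 hr (log2 -1.18, SE 0.15, adjusted p = 5.4e-05). The 6 hr lungs were close together in all 3 genes, whereas the 24 hr lungs spread more widely. Hlf fell by 1.32 (SE 0.16, adjusted p = 3.6e-05), Per2 by 1.12 (SE 0.20, adjusted p = 0.0016), Tef by 1.01 (SE 0.12, adjusted p = 2.9e-05), Ciart by 0.91 (SE 0.14, adjusted p = 0.00033), Nr1d1 by 0.69 (SE 0.10, adjusted p = 0.00027) and Cry2 by 0.44 (SE 0.10, adjusted p = 0.0095). Per3 had a difference of -0.06 in its listed probe set, and 5 of its 6 probe sets were called lower.

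Genes of the activating arm, Cry1 and the repressor of D-box sites were higher. Nfil3, which represses D-box genes, ranged from 0.56 to 1.35 (median 0.93) at 24 hr and from -1.16 to -0.41 (median -0.75) at 6 hr (log2 1.61, SE 0.10, adjusted p = 2.6e-08). Npas2, a partner of BMAL1, rose by 0.55 (SE 0.10, adjusted p = 0.0011), Cry1 by 0.51 (SE 0.11, adjusted p = 0.0046), Clock by 0.50 (SE 0.04, adjusted p = 1.1e-06) and Arntl by 0.39 (SE 0.08, adjusted p = 0.0047). Another probe set of Clock, that with the largest SD over the air and 48 hr arrays, differed by -0.09. By genotype, Dbp differed by -2.58 in Notch3-/-, -3.14 in Notch4-/- and -2.15 in WT lungs, and Nfil3 by 1.63, 1.50 and 1.70 in the same order, and no called clock gene was among those whose change differed between genotypes.

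**Figure D3:**
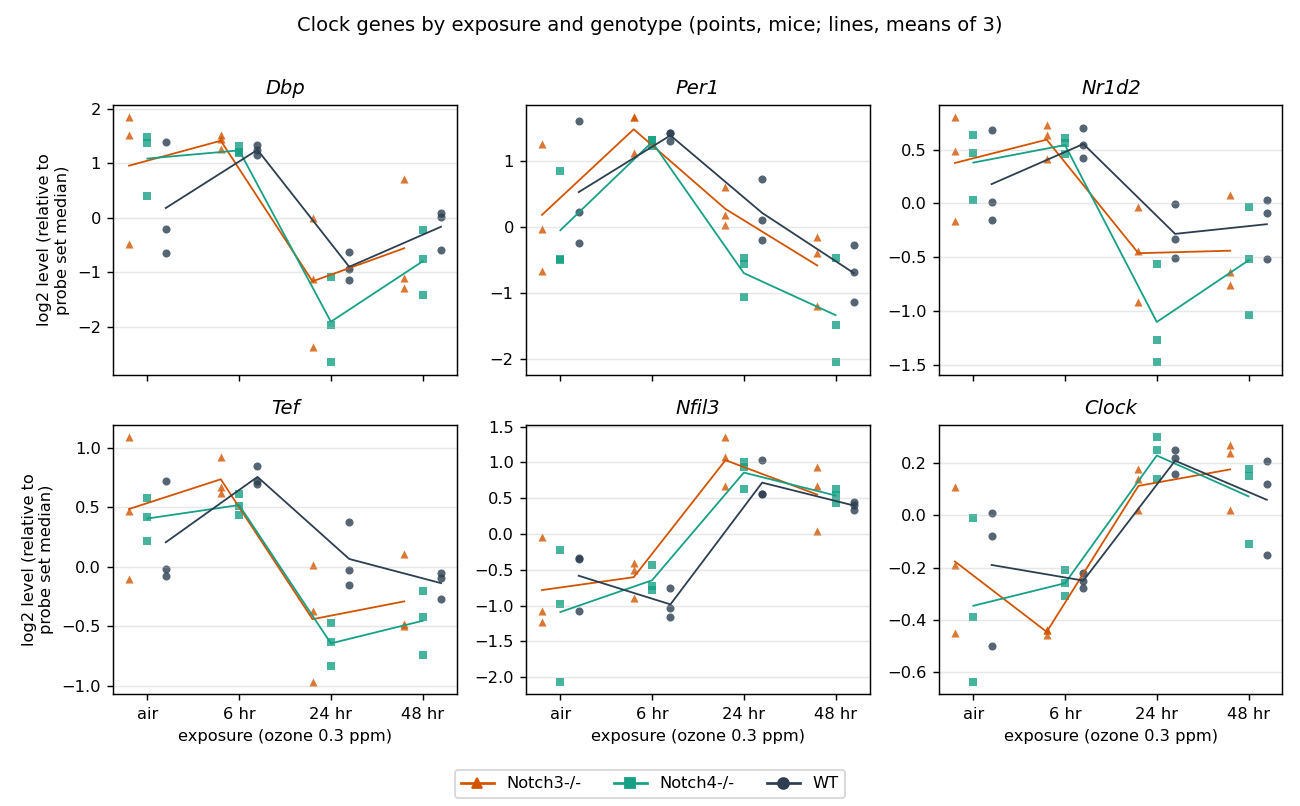
Log2 level relative to the probe set median of 6 clock genes in air and after 6, 24 and 48 hr of ozone, with 1 point per mouse and lines joining the means of 3 mice of each genotype. Dbp, Per1, Nr1d2 and Tef were lower and Nfil3 and Clock higher at 24 hr than at 6 hr in all genotypes, and Dbp in air spread more widely than at 6 hr, where all 9 lungs lay between 1.16 and 1.52.

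Differences from air show at which time a gene stood away from unexposed lungs, and they share the 6 and 24 hr arrays with the comparison above and the air arrays with each other. Against the 9 air lungs, 1305 probe sets (2.9%) were called at 6 hr, 370 (0.822%) higher and 935 (2.08%) lower, and 2384 (5.29%) at 24 hr, 1437 (3.19%) higher and 947 (2.1%) lower. The 6 hr count lay between 526 and 2055 with 1 array left out. It left the range of 1.5 times the full count without air replicates 1, 2 and 3 of WT (2055, 715 and 526), WT 6 hr replicate 1 (606), Notch3-/- air replicate 1 (860), Notch3-/- 6 hr replicate 1 (780), Notch4-/- air replicates 2 and 3 (761 and 841) and Notch4-/- 6 hr replicates 1 and 3 (857 and 800). The 24 hr count was 1376 to 2920, and 1457 without Notch3-/- 24 hr replicate 1 and 1376 without Notch4-/- air replicate 3. Single genes given below with an adjusted p under 0.05 against air kept that call without any 1 array. The members behind the list counts against air did not all do so.

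Most inflammatory rises lay after 6 hr. Il6 at 6 hr differed from air by 0.10 (adjusted p = 0.85) and at 24 hr by 3.05 (adjusted p = 4.8e-10). The same pair of differences was 0.02 (adjusted p = 0.98) and 1.95 (adjusted p = 5.6e-07) for Cxcl1, -0.32 (adjusted p = 0.21) and 1.45 (adjusted p = 1e-07) for Ccl2, and -0.04 (adjusted p = 0.82) and 1.38 (adjusted p = 2.9e-11) for Socs3. Dbp lay 0.56 above air at 6 hr (adjusted p = 0.37) and -2.06 from it at 24 hr (adjusted p = 0.00024). Nr1d1 differed from air by 0.00 (adjusted p = 0.99) at 6 hr and by -0.69 (adjusted p = 5.7e-05) at 24 hr.

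Many chaperone genes rose as well. Of 19 heat shock genes 13 were called, all higher at 24 hr, with a median difference of 0.52, and 5 were called by the methods' Tukey test. Against air, 6 of the 19 were called lower at 6 hr and 0 in either direction at 24 hr. Among these 6, Hspe1 lost its call in 15 and Hsph1 in 4 of 27 fits without 1 array. Stip1, the co-chaperone that links HSP70 and HSP90, ranged from -0.36 to 0.56 (median 0.22) at 24 hr and from -0.96 to -0.12 (median -0.70) at 6 hr (log2 0.86, SE 0.12, adjusted p = 0.00016). It differed from air by -0.69 at 6 hr (adjusted p = 0.0023) and by 0.18 at 24 hr (adjusted p = 0.38). Hsph1, an HSP110 exchange factor, rose by 1.37 between the times (SE 0.25, adjusted p = 0.0015), Hsp90aa1 by 0.62 (SE 0.14, adjusted p = 0.0081), Dnaja1 by 0.59 (SE 0.16, adjusted p = 0.021), the mitochondrial chaperonins Hspd1 by 0.58 (SE 0.08, adjusted p = 0.00012) and Hspe1 by 0.49 (SE 0.10, adjusted p = 0.0034), and the collagen chaperone Serpinh1 by 0.52 (SE 0.12, adjusted p = 0.0082). Serpinh1 also lay -0.60 from air at 6 hr (adjusted p = 0.0096) and -0.09 at 24 hr (adjusted p = 0.73). Hsp90aa1 differed from air by -0.34 (adjusted p = 0.20) at 6 hr and by 0.28 (adjusted p = 0.28) at 24 hr, Dnaja1 by -0.33 (adjusted p = 0.25) and 0.27 (adjusted p = 0.33), and Hspd1 by -0.32 (adjusted p = 0.064) and 0.26 (adjusted p = 0.11), so that these 3 lay about as far above air at 24 hr as below it at 6 hr and were called at neither time. Ahsa1, which activates HSP90, rose by 0.46 (SE 0.08, adjusted p = 0.0015), and a second probe set of it differed by -0.16.

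Unfolded protein response genes of the endoplasmic reticulum rose in 15 of 22 cases, the only direction called, with a median difference of 0.34. Against air, 6 of the 22 were called lower at 6 hr and 1 higher at 24 hr. Among these 6, Hyou1 lost its call in 9 of 27 fits without 1 array. Manf, a secreted chaperone-like factor induced by endoplasmic reticulum stress, ranged from -0.45 to 0.52 (median 0.20) at 24 hr and from -1.17 to -0.58 (median -0.78) at 6 hr (log2 0.97, SE 0.10, adjusted p = 7.2e-06). Creld2 ranged from -0.47 to 0.48 (median 0.30) at 24 hr and from -1.15 to -0.55 (median -0.74) at 6 hr (log2 0.96, SE 0.09, adjusted p = 5.1e-06). Hspa5, the luminal HSP70 called BiP, ranged from -0.15 to 0.28 (median 0.14) at 24 hr and from -0.58 to -0.26 (median -0.47) at 6 hr (log2 0.56, SE 0.06, adjusted p = 2.1e-05). None of these 3 overlapped. Against air at 6 hr they differed by -0.66 (adjusted p = 0.0033), -0.60 (adjusted p = 0.0086) and -0.38 (adjusted p = 0.005), and at 24 hr by 0.31 (adjusted p = 0.11), 0.36 (adjusted p = 0.077) and 0.18 (adjusted p = 0.15). Sdf2l1 (0.95, SE 0.11), Pdia6 (0.59, SE 0.07), Hyou1 (0.59, SE 0.08) and Dnajb11 (0.54, SE 0.06) rose with adjusted p of at most 0.00012. These 4 lay on both sides of air, at -0.51, -0.33, -0.33 and -0.28 at 6 hr and at 0.44, 0.26, 0.26 and 0.26 at 24 hr in the same order. Ddit3 (CHOP), the stress transcription factor, rose by 0.57 (SE 0.11, adjusted p = 0.0023) and differed from air by -0.53 at 6 hr (adjusted p = 0.007) and 0.04 at 24 hr (adjusted p = 0.85).

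Several genes that glucocorticoids induce lay high at 6 hr. Of 20 glucocorticoid-responsive genes 5 were called lower and 2 higher at 24 hr. Ddit4, an inhibitor of mTOR, ranged from -0.60 to 0.27 (median -0.08) at 24 hr and from 0.12 to 1.03 (median 0.66) at 6 hr (log2 -0.78, SE 0.12, adjusted p = 0.00033). At 6 hr it lay 0.88 above air (adjusted p = 0.0051) and at 24 hr 0.10 (adjusted p = 0.76). Per1 showed the same course, 1.17 above air at 6 hr (adjusted p = 0.014) and -0.30 from it at 24 hr (adjusted p = 0.54). Errfi1 was 0.95 above air at 6 hr (adjusted p = 4.4e-05) and 0.63 at 24 hr (adjusted p = 0.0011). The arrestin-like gene Arrdc2 was lower at 24 hr by log2 -0.48 (SE 0.12, adjusted p = 0.012). The NF-kB inhibitor Nfkbia was lower by log2 -0.17 (SE 0.05, adjusted p = 0.032), a call lost in 7 of 18 fits without 1 array, with an adjusted p of at most 0.062. The 2 that rose were Cdkn1a and Lcn2, which also belong to other lists.

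**Figure D4:**
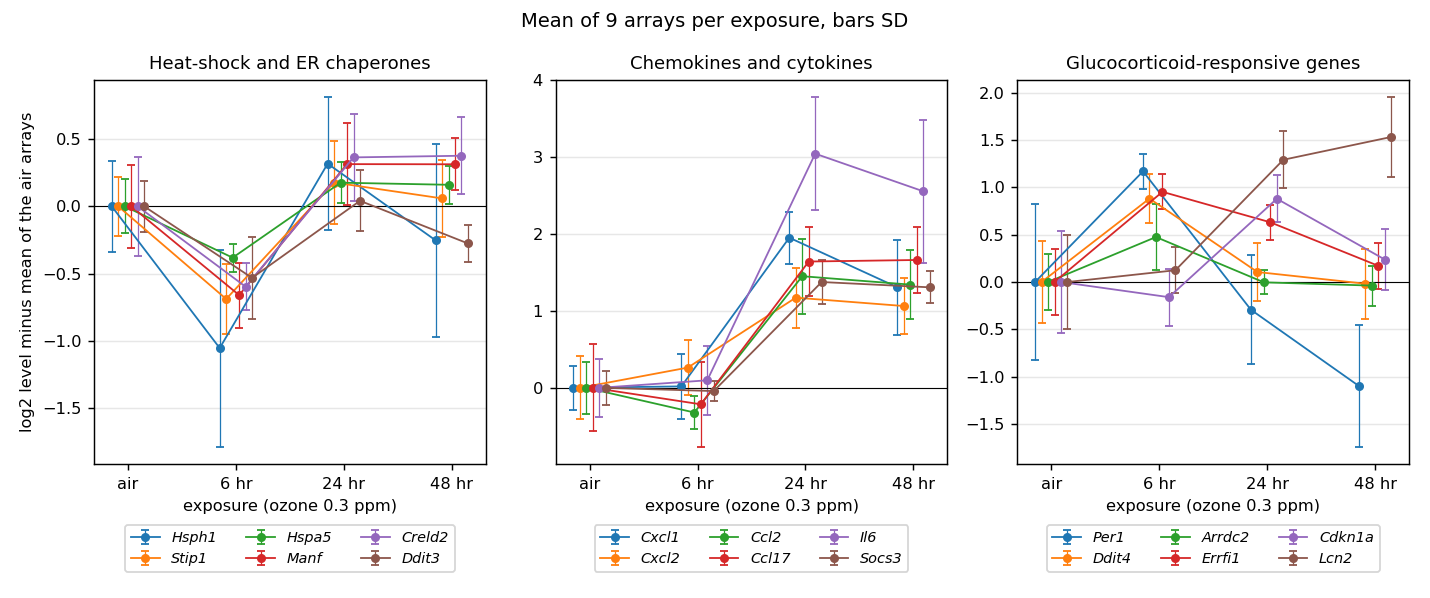
Mean log2 level of 9 arrays at each exposure minus the mean of the 9 air arrays, bars 1 SD, for chaperone genes (left), chemokines and cytokines (middle) and genes of the glucocorticoid-responsive list (right). Stip1, Hspa5, Manf, Creld2 and Ddit3 lie below air at 6 hr and 0.04 to 0.36 above it at 24 hr, Il6 lies at 0.10 at 6 hr and 3.05 at 24 hr, and Ddit4 and Errfi1 lie highest at 6 hr.

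Some stress and growth genes changed too. Cdkn1a, the cell cycle inhibitor p21, ranged from 0.31 to 1.03 (median 0.69) at 24 hr and from -0.92 to 0.04 (median -0.38) at 6 hr (log2 1.04, SE 0.12, adjusted p = 3.6e-05). It was 1 of 6 p53 targets called higher among 18, with Gadd45g (0.92, SE 0.12, adjusted p = 0.00013), the death receptor Tnfrsf10b (0.45, SE 0.08, adjusted p = 0.0013) and Phlda3 (0.37, SE 0.05, adjusted p = 7.8e-05), and 3 were called lower, among them Sesn1 (-0.58, SE 0.16, adjusted p = 0.02) and Trp53inp1 (-0.47, SE 0.08, adjusted p = 0.0008). A second probe set of Trp53inp1 differed by 0.03 (adjusted p = 0.94). Of 22 AP-1 and immediate early genes 6 were called higher and 1 lower, or 2 lower without WT 6 hr replicate 2. Fosl1 (0.83, SE 0.11, adjusted p = 7.3e-05), Junb (0.77, SE 0.09, adjusted p = 3.8e-05) and Myc (0.75, SE 0.09, adjusted p = 3e-05) rose without overlap between the times. Klf2, a quiescence factor of endothelium and T cells, was lower by log2 -0.52 (SE 0.13, adjusted p = 0.011) and lay 0.80 above air at 6 hr (adjusted p = 0.0099).

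Of 24 DNA replication genes 9 were called, all higher, with a median difference of 0.22, and 2 were called by the methods' Tukey test. The count was 3 without WT 6 hr replicate 1, WT 24 hr replicate 3 or Notch4-/- 6 hr replicate 1. It was 4 without WT 6 hr replicate 2, WT 24 hr replicate 2, Notch3-/- 6 hr replicate 1, Notch3-/- 24 hr replicate 3 or Notch4-/- 24 hr replicate 2, and 5 without Notch3-/- 24 hr replicate 1 or Notch4-/- 6 hr replicate 3. The helicase subunit Mcm4 ranged from -0.04 to 0.16 (median 0.02) at 24 hr and from -0.33 to -0.06 (median -0.11) at 6 hr (log2 0.20, SE 0.05, adjusted p = 0.013). Gins1 rose by 0.49 (SE 0.11, adjusted p = 0.0076) and the sliding clamp Pcna by 0.34 (SE 0.08, adjusted p = 0.009). Against air, 0 of the 24 replication genes were called in either direction at 6 hr or at 24 hr. Of 29 mitosis and cytokinesis genes only Mki67 was called (log2 0.54, SE 0.15, adjusted p = 0.027), and that call was lost in 7 of 18 fits without 1 array, with differences of 0.47 to 0.61. The mitosis count was 0 by the methods' Tukey test, 4 without WT 6 hr replicate 3, 3 without Notch3-/- 6 hr replicate 2 and 2 without WT 24 hr replicate 1. It was 0 without WT 6 hr replicate 1, WT 24 hr replicates 2 or 3, Notch4-/- 6 hr replicates 1 or 3 or Notch4-/- 24 hr replicates 2 or 3. The replication and mitosis lists were not tested against each other. The median over the mitosis list was 0.11. Cdk1, the mitotic kinase, ranged from -0.95 to 0.36 (median -0.02) at 24 hr and from -1.12 to 0.13 (median -0.39) at 6 hr (log2 0.29, SE 0.18, adjusted p = 0.32).

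Of 26 interferon-stimulated genes, 5 were called lower and 1 higher, or 2 higher without Notch3-/- 6 hr replicate 3. Gbp3, an interferon-induced GTPase, ranged from -0.64 to 0.23 (median -0.33) at 24 hr and from -0.44 to 0.97 (median 0.57) at 6 hr (log2 -0.70, SE 0.11, adjusted p = 0.00036). Oasl2 (-0.37, SE 0.09, adjusted p = 0.01), Gbp2 (-0.33, SE 0.06, adjusted p = 0.0027) and the RNA sensor Ifih1 (-0.30, SE 0.05, adjusted p = 0.00059) were lower too. Cxcl10, which NF-kB also induces, rose by 0.98 (SE 0.15, adjusted p = 0.00032). Values of Gbp3 overlapped between the times, as did those of the other 4 genes of the list named here.

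Some endothelial and macrophage markers rose. Of 23 endothelial genes 6 were called (26.1%), all higher, with a median difference of 0.18, and 2 were called by the methods' Tukey test. Sele, the E-selectin that activated endothelium displays to leukocytes, ranged from 0.17 to 1.29 (median 0.80) at 24 hr and from -0.51 to 0.05 (median -0.25) at 6 hr (log2 1.0, SE 0.12, adjusted p = 5.3e-05), and Icam1 rose by 0.44 (SE 0.08, adjusted p = 0.00095). Among 19 macrophage genes 3 were called higher (15.8%, against 7.4% of all genes) and 0 lower, and 2 were called higher by the methods' Tukey test. The median difference over the macrophage list was -0.00 and the lowest -0.45. Retnla, a marker of alternatively activated macrophages, ranged from -0.65 to 0.48 (median 0.32) at 24 hr and from -2.16 to -0.68 (median -1.0) at 6 hr (log2 1.44, SE 0.14, adjusted p = 4.9e-06), and the scavenger receptor Marco rose by 0.78 (SE 0.10, adjusted p = 7.2e-05). The mean over the macrophage list was -0.38 to 0.28 (median -0.03) at 24 hr and -0.30 to 0.27 (median -0.16) at 6 hr. Of 16 T and NK cell genes 0 were called in either direction, with 0 higher and 1 lower at an unadjusted p under 0.05 and 0 called by the methods' Tukey test. Over all probe sets, 12234 of 45037 had an unadjusted p under 0.05. Zap70, the T cell receptor kinase, differed by -0.25 (SE 0.11, adjusted p = 0.16), and by -0.33 (adjusted p = 0.035) without WT 6 hr replicate 1.

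Some drug-metabolizing and fat genes were lower at 24 hr. Of 18 cytochrome P450 and flavin monooxygenase genes 5 were called lower and 1 higher, or 2 higher without Notch3-/- 6 hr replicate 1. Cyp2e1, the ethanol-inducible cytochrome, ranged from -2.15 to 0.73 (median -0.64) at 24 hr and from -0.27 to 2.69 (median 0.72) at 6 hr (log2 -1.50, SE 0.39, adjusted p = 0.016). The aldehyde oxidase Aox3 was lower by log2 -0.49 (SE 0.09, adjusted p = 0.002), whereas the oxysterol hydroxylase Cyp7b1 rose by 0.94 (SE 0.15, adjusted p = 0.00057). Acaa1b, a peroxisomal thiolase, was lower by log2 -0.84 (SE 0.10, adjusted p = 3.9e-05). Thrsp, a lipogenic regulator of adipocytes, ranged from -2.23 to 1.55 (median -1.16) at 24 hr and from -0.55 to 3.66 (median 0.38) at 6 hr (log2 -1.77, SE 0.50, adjusted p = 0.026), and its call was lost in 4 of 18 fits without 1 array, with an adjusted p of at most 0.055. Fabp4, the fatty acid carrier of adipocytes, macrophages and capillaries, was lower by log2 -0.57 (SE 0.15, adjusted p = 0.022). Of 18 fatty acid synthesis and adipocyte genes 4 were called, all lower, and 0 by the methods' Tukey test. That count was 1 or 2 in 13 of 18 fits without 1 array, and 3 to 6 without WT 6 hr replicates 2 or 3, WT 24 hr replicate 2, Notch3-/- 6 hr replicate 3 or Notch4-/- 24 hr replicate 1. The mean over 18 fatty acid synthesis and adipocyte genes lay at -0.47 to 0.36 (median -0.27) at 24 hr and at -0.24 to 0.99 (median 0.11) at 6 hr, highest in Notch3-/- 6 hr replicate 1. The mean over 14 cardiac muscle genes, which the sleeves of pulmonary veins express, lay at -1.43 to 0.63 (median -0.23) at 24 hr and at -0.76 to 1.46 (median 0.05) at 6 hr. The part of attached fat or vein muscle in these differences was not tested.

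With 3 mice at each time, 757 probe sets (1.68%) were called within Notch3-/- mice, 1121 (2.49%) within Notch4-/- mice and 149 (0.331%) within WT mice. With the replicate number as a block the counts were 458, 577 and 73 in the same order. Same-numbered Notch4-/- lungs deviated together in all 3 pairs (correlations of 0.316, 0.227 and 0.328), which those of Notch3-/- and WT mice did not. Single arrays moved these counts. Within Notch3-/- mice the count was 336 and 393 without 6 hr replicates 1 and 3 of Notch3-/-, and 325, 297 and 427 without 24 hr replicates 1, 2 and 3. Within Notch4-/- mice it was 171 and 357 without 6 hr replicates 1 and 3 of Notch4-/-, 266 and 534 without 24 hr replicates 2 and 3, and 1739 without Notch3-/- 6 hr replicate 2. Within WT mice it was 39 and 44 without 6 hr replicates 1 and 3 of WT, 35 and 24 without 24 hr replicates 2 and 3, 96 without Notch3-/- 6 hr replicate 3 and 81 without Notch4-/- 6 hr replicate 1. A larger count in 1 genotype was therefore not taken as a difference between genotypes.

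The question whether the knockouts changed the course between 6 and 24 hr was addressed by the interaction of time and genotype. It was called for 15 of 45037 probe sets (0.0333%), with 2695 at an unadjusted p under 0.05, and for 27 without Notch3-/- 6 hr replicate 2. Trim30d, a member of the Trim30 gene cluster on chromosome 7, read 0.18, 0.05 and 0.32 in Notch3-/- lungs at 24 hr and -4.63, -4.76 and -4.76 in Notch3-/- lungs at 6 hr. In Notch4-/- lungs it read 0.30, 0.30 and 0.35 at 24 hr and 0.80, 0.89 and 0.56 at 6 hr. In WT lungs it read -1.24, -1.06 and -1.06 at 24 hr and -1.06, -1.05 and -0.57 at 6 hr. The Notch3-/- lungs at 6 hr thus stood alone, and the change was 4.90 in Notch3-/- (SE 0.13), -0.43 in Notch4-/- and -0.23 in WT (interaction adjusted p = 3e-11). In air the Notch3-/- lungs read -0.78, 0.06 and 0.32.

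Trim5, also on chromosome 7, had the same form, at -0.10, -0.01 and 0.26 in Notch3-/- lungs at 24 hr and -1.51, -1.62 and -1.33 in Notch3-/- lungs at 6 hr. Its change was 1.54 in Notch3-/-, -0.62 in Notch4-/- and -0.29 in WT (interaction adjusted p = 0.0013). Hddc3, a phosphohydrolase gene on chromosome 7, read -0.59, -0.51 and -0.39 in Notch3-/- lungs at 24 hr and 1.71, 2.02 and 1.74 in Notch3-/- lungs at 6 hr. It changed by -2.31 in Notch3-/-, -0.14 in Notch4-/- and -0.12 in WT (interaction adjusted p = 1.2e-06). Hddc3 was called lower in the pooled fit (log2 -0.86, SE 0.25, adjusted p = 0.03) with these unequal changes, and that call was lost in 6 of 18 fits without 1 array. In the Notch3-/- air lungs Hddc3 read 1.09, -0.71 and -0.07 and Trim5 read -0.58, 0.53 and 0.88, so that replicate 1 in air lay toward the 6 hr values in Trim30d, Trim5 and Hddc3.

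Krtap17-1, a keratin-associated protein gene, changed in WT lungs, at -1.45, -1.21 and -1.23 at 24 hr and 0.57, 0.23 and 0.34 at 6 hr. Its change was 0.44 in Notch3-/-, -0.17 in Notch4-/- and -1.68 in WT (interaction adjusted p = 0.00064). Igfbp3, a binding protein of insulin-like growth factors, read 0.24, 0.49 and 0.33 in Notch3-/- lungs at 24 hr and -0.26, -0.02 and 0.03 in Notch3-/- lungs at 6 hr. It changed by 0.44 in Notch3-/-, against -0.61 in Notch4-/- and -0.59 in WT (interaction adjusted p = 0.0063). Trim30a, the Trim30 gene proper, differed by 0.20 in the pooled fit (SE 0.17, adjusted p = 0.49) and by 1.04 in Notch3-/-, -0.46 in Notch4-/- and 0.02 in WT (interaction adjusted p = 0.066).

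**Figure D5:**
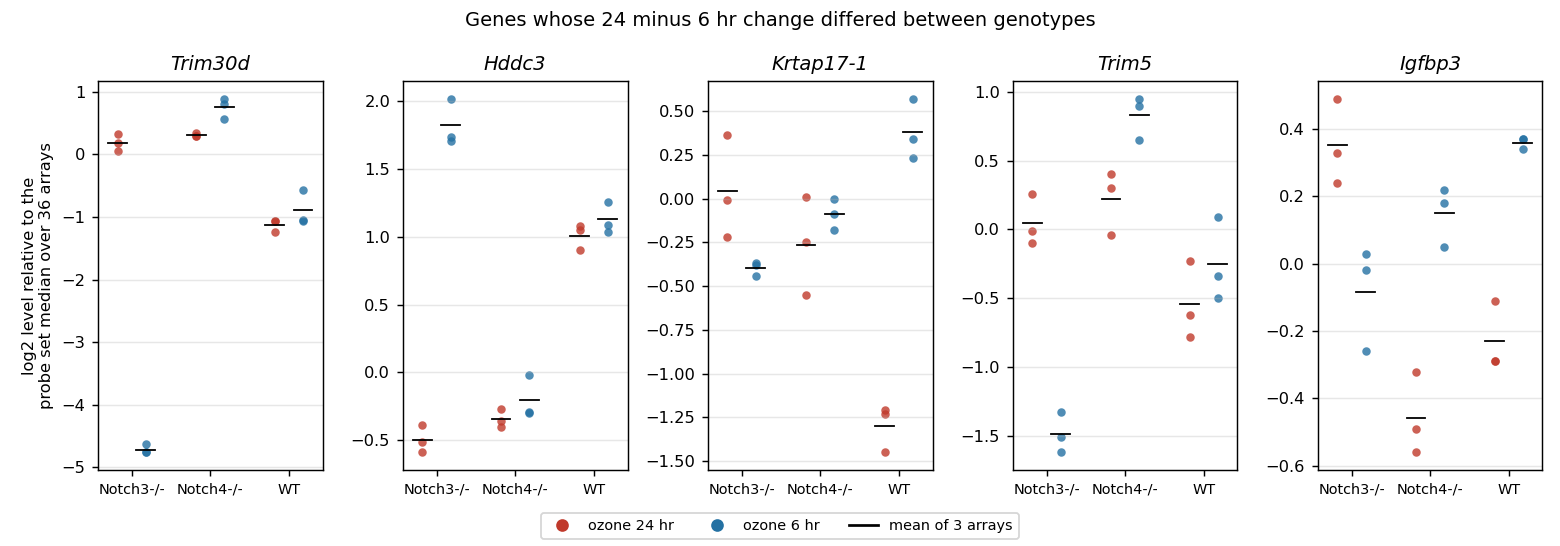
Log2 level relative to the probe set median of the 5 genes with the smallest interaction p, by genotype, with 24 hr (red) left of 6 hr (blue), 1 point per mouse and a bar at the mean of 3. Trim30d in Notch3-/- lungs lies between 0.05 and 0.32 at 24 hr and between -4.76 and -4.63 at 6 hr, and Krtap17-1 separates the times by more than 1 log2 unit in WT lungs.

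Among 18 Notch pathway genes 2 were called, both higher at 24 hr. That share of 11.1% lay near the 7.4% of all genes called higher. Jag2, a Notch ligand, ranged from -0.20 to 0.39 (median 0.19) at 24 hr and from -0.42 to 0.00 (median -0.13) at 6 hr (log2 0.31, SE 0.08, adjusted p = 0.01). Notch2, a receptor of airway and mesenchymal cells, ranged from -0.11 to 0.29 (median 0.07) at 24 hr and from -0.40 to -0.10 (median -0.21) at 6 hr (log2 0.29, SE 0.06, adjusted p = 0.0036), and it differed from air by -0.34 at 6 hr (adjusted p = 0.0021). Another probe set of Notch2 differed by -0.02 between 24 and 6 hr. The ligand Jag1 differed by 0.08 (SE 0.08, adjusted p = 0.55) and the target Hes1 by 0.14 (SE 0.11, adjusted p = 0.41). Notch3 itself differed by -0.12 (SE 0.09, adjusted p = 0.41) across the 18 lungs.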

How the data were processed

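Total RNA of whole left lungs, 1 mouse per array, was hybridised to Affymetrix mouse genome GeneChips, 3 per group. Normalization by robust multiarray average (RMA) was done by the authors, and the deposited log2 values are each centred on the probe set's median over the 36 arrays, so that levels of different genes cannot be compared. Of 45101 probe sets, 64 controls were left out and 45037 tested. By the platform annotation 34945 probe sets had 1 gene symbol, 932 several and 9160 none, and names were taken from single-symbol probe sets, 34741 of which matched RefSeq. A gene was represented by its most specific probe set (an _at suffix with no letter first, then a, s and x, then the lowest number). Other probe sets of a named gene were not always called, as in Dixdc1, Six4, Tnfaip2, Plat and Pdia6. Linear models with genotype and time were fitted to the 18 ozone arrays of 6 and 24 hr with limma 3.58.1 in R 4.3.3, with Benjamini-Hochberg adjustment over all probe sets and a threshold of 0.05. Interaction and air contrasts used fits with a mean per group. SEs are those of the model, and 3 arrays per group limit the precision. Replicates were individual animals, so that p-values measure the spread between mice.

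Genes named include the 10 largest rises and falls without overlap and with the same sign in all 3 genotypes. The others are up to 5 members of each list with the smallest adjusted p, the 5 smallest interaction p, the targeted genes and genes the study names. Genes named although not called, and Per3, Krt18, Scgb1a1, Bpifa1, S100a9, Ltf, Foxj1, Cdk1, Bhlhe41 and genes past the fifth of a list, were chosen after their values were seen. The members and lists were chosen with earlier results of these data known. The labels do not say that replicate numbers mark shared animals or days, and same-numbered deviations correlated at -0.39 to 0.493 and over 0.1 in 4 of 9 pairs, 3 of them the pairs of Notch4-/- mice, so that the pooled comparison was not blocked. The alternatives tried were the methods' ANOVA with Tukey's test, all 36 arrays in the fit, no genotype term, 1 mean per genotype and time, median centring, another quantile normalization, array weights, a filter on the SD, another probe set per gene, a replicate block, and leaving out each array or genotype. The fitting code was tested on simulated data. Promoter sequences are from RefSeq (GRCm38.p6).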

Additional observations from a re-analysis of the deposited data

Results flagged for a closer look

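Dixon's test found 1 lung standing apart from the other 8 of its time in 15 of 328 groups (2 times for each of 164 genes named or considered), where chance gives about 1 group in 20. WT 24 hr replicate 1 was the low lung in 5 of them, at -0.07 for Cxcl3 (next lowest 1.39), -0.16 for Lcn2 (0.40), -0.65 for Retnla (0.14), -0.43 for Sprr1a (0.42) and -0.13 for Timp1 (0.91). Without it their differences were 3.17, 1.23, 1.51, 3.43 and 3.39 on the log2 scale, each with an adjusted p of at most 2.6e-06 in limma's test. That lung also had the lowest mean over the neutrophil and club cell lists at 24 hr (-0.64 and -1.76), and its part in the result was not tested.

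Notch4-/- 24 hr replicate 3 was low in Gsta2 (-0.85, next -0.40), Nfkbia (-0.23, next -0.01) and Six4 (-1.60, next -0.57), with differences of -0.79, -0.14 and -0.75 without it, and the call of Nfkbia was then lost (adjusted p = 0.057). Notch4-/- 24 hr replicate 2 was high in Npas2 (0.92, next 0.34) and Notch3-/- 24 hr replicate 3 was low in Thbs3 (-0.78, next -0.30). At 6 hr, Notch4-/- replicate 1 was high in Cat (0.42, next 0.20), WT replicate 2 high in Cry1 (0.25, next -0.19), Notch3-/- replicate 2 high in Fgg (0.70, next 0.01), and WT replicate 1 low in Sprr1a (-3.60, next -2.83) and Zap70 (-0.39, next 0.03).

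The change between 6 and 24 hr differed between genotypes for Trim30d (interaction adjusted p = 3e-11 in limma's F test), Hddc3 (1.2e-06), Krtap17-1 (0.00064), Trim5 (0.0013) and Igfbp3 (0.0063). The knockout and the strain background cannot be told apart in these differences.

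The 48 hr arrays, which stand on neither side of the 24 minus 6 hr difference or of the differences from air given above, held a signal in proliferation genes. Fits that held all arrays of the series, and the choice of another probe set per gene, did draw on the 48 hr arrays. In 10 of 29 mitosis genes (34.5%) and 8 of 24 replication genes (33.3%) all 9 lungs at 48 hr were above all 9 air lungs and the 48 hr mean was above those at 6 and 24 hr, against 246 of 18193 genes (1.35%). The median difference from air over the mitosis genes was -0.11 at 6 hr, 0.01 at 24 hr and 1.59 at 48 hr, and over the replication genes -0.04, 0.16 and 0.76.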

How the results depend on the processing

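The count of 5796 probe sets called (2803 higher, 2993 lower, 2537 genes) was 2351 (1250, 1101 and 1175) by the methods' ANOVA with Tukey's test, 2628 (1314, 1314 and 1253) leaving out WT mice, 3398 (1585, 1813 and 1342) leaving out Notch3-/- mice and 2158 (1023, 1135 and 1012) leaving out Notch4-/- mice, the last 3 with fewer samples. Without 1 array it was 4408 to 6491 (2115 to 3167, 2255 to 3375 and 1996 to 2847). Under the other settings it was within 1.5 times the full count, 5045 with the replicate block among them. Within WT mice 149 probe sets were called, 53 after another quantile normalization, 244 with array weights, 73 with the replicate block and 16 with only the arrays of the genotype. Within Notch3-/- mice 757 were called, 1840 with array weights, 458 with the replicate block and 126 with only their own arrays. Within Notch4-/- mice 1121 were called, 4696 with array weights, 577 with the replicate block and 533 with only their own arrays. Without 1 array these counts were 24 to 222, 297 to 972 and 171 to 1739, the interaction count was 13 to 27, the change in Notch3-/- minus that in WT (15 called) 10 to 19, that in Notch4-/- minus WT (0 called by limma) 0 to 2, and the counts against air 526 to 2055 at 6 hr and 1376 to 2920 at 24 hr. The cause was not tested.

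Of 153 named or considered genes called, 145 kept their call in every fit without 1 array. Under the other settings, 1844 of 1983 values kept direction and side of the threshold, 136 lost the call and 3 changed sign, all with the probe set of the largest SD over air and 48 hr arrays: Ahsa1 (-0.16), Clock (-0.09) and Notch2 (-0.02). Signal over background is not given by the deposited values, so that low transcripts could not be set apart.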
